A study of Homo sapiens with 282 samples.

Results

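The MYC, MAX and MXD network was described through 8 genes, MYC, MAX, MLX, MXD1, MXI1, MXD3, MXD4 and MNT. They were taken by symbol from the platform annotation and are 8 of 18239 genes measured. Each gene was represented by the probe set with the highest mean log2 intensity over all 282 arrays. MYC had only 1 probe set, MXD1 and MNT had 2 each, MXD3 had 3, MXD4 and MXI1 had 5 each, MLX had 6 and MAX had 12.

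OCI-Ly3 is an established human lymphoma line of the diffuse large B cell kind. Cells were plated in 96-well plates in IMDM with fetal calf serum, compounds were added 12 h later, and total RNA was taken 6, 12 or 24 h after that for Affymetrix HT HG-U219 arrays. Each time had 94 arrays in 29 groups. They were 8 arrays of vehicle (DMSO at 1%), 2 of medium alone, 6 of methotrexate and 3 of every other compound and concentration. All groups are the same line without any genetic change named in the labels. Nothing in the labels ties replicates to different cultures, so p-values measure the spread between these samples, which may be technical. Methotrexate's 6 arrays per time are numbered only 1 to 3.

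Compounds that act on DNA or its synthesis were camptothecin (topoisomerase I, 0.31 and 0.01 µM), etoposide (topoisomerase II, 0.812 and 0.811 µM), doxorubicin (an anthracycline, 0.101 and 0.03 µM), aclacinomycin A (an anthracycline, 0.105 and 0.036 µM), mitomycin C (a crosslinker, 2.56 and 0.553 µM) and methotrexate (an antifolate, 100 µM). Compounds that act on the cytoskeleton were vincristine (0.01 and 0.005 µM), monastrol (100 and 50 µM) and blebbistatin (100 and 10 µM). The others were the protein synthesis inhibitor cycloheximide (5 and 0.264 µM), the HSP90 inhibitor geldanamycin (0.032 and 0.001 µM), the kinase inhibitor H-7 (20.2 and 12.4 µM), the mTOR inhibitor rapamycin (22 and 13.8 µM) and the histone deacetylase inhibitor trichostatin A (0.143 and 0.114 µM).

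MYC is a transcription factor that binds DNA only as a pair with MAX, at the E-box, and drives genes of ribosome production, nucleotide synthesis and growth. MXD1, MXI1, MXD3, MXD4 and MNT also pair with MAX at E-boxes but recruit SIN3 corepressors, so they compete with MYC for a shared partner. MLX is a relative of MAX that pairs with some of these repressors and with the glucose-responsive Mondo proteins MLXIP and MLXIPL. MYC RNA and protein turn over fast, and MYC is a common driver of B cell lymphoma.

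The E-box is the DNA word that members of the network bind, so the bases just before the start of members were searched for CACGTG, which reads the same on both strands. The windows are the 250 bases before each start in the RefSeq promoter set (GRCh38.p14), and the MYC window was not read. A gene can have several listed starts. The 2 MAX windows lie inside the span of the gene, so the bases before its outermost start were not searched. Some of the 3 MXI1 windows also lie inside that gene. Of the 7 members searched, MXD4, MNT and MLX held the word and MXD1, MXI1, MXD3 and MAX did not. Over all 35116 RefSeq windows of the same length, 6.34% held it. The sequences of the 3 members with the word and of MXD1, the repressor with the widest range of changes at 6 h, are given in lower case with CACGTG in capitals. A match describes letters and is not evidence of binding, and a window without the word says only that these letters are not in it.
MXD4 (chr4:2262110-2262359, minus strand): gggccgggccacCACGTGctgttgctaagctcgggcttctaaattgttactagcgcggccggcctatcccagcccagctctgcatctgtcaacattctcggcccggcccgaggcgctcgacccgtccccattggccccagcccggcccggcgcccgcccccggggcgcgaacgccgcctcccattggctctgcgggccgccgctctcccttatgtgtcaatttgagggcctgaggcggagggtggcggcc
MNT (chr17:2401061-2401310, minus strand): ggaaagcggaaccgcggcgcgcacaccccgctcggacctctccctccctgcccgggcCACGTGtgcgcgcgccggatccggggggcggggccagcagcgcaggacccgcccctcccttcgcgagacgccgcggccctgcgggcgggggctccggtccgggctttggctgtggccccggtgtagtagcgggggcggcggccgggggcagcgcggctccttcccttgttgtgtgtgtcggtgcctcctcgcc
MLX (chr17:42566850-42567099, plus strand): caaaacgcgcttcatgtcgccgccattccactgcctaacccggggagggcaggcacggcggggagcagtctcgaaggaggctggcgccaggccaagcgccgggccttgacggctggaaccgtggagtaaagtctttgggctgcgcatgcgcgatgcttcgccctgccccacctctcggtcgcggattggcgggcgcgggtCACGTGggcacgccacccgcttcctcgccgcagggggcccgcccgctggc
MXD1 (chr2:69914859-69915108, plus strand): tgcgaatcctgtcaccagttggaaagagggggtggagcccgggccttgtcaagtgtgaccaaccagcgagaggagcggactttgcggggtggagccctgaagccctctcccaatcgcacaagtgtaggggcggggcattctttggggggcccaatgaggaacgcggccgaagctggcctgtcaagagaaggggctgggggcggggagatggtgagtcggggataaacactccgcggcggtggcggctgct
The word begins 238 bases before the start of MXD4, 193 before that of MNT and 50 before that of MLX. Among the 3 members that hold it, MNT rose while MXD4 and MLX fell under trichostatin A at 6 h, as described with each gene.

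Array quality differed between times and sets the precision of what follows. Low-signal arrays (upper quartile of log2 intensity under 8, or ACTB 3' minus 5' difference over 2) were 0 of 94 at 6 h, 31 of 94 at 12 h and 17 of 94 at 24 h, and included 4 of 8 DMSO arrays at 12 h and 1 of 8 at 24 h. The median standard error over all contrasts and genes rose from 0.0988 (6 h) to 0.299 (12 h) and 0.276 (24 h), so 6 h is described first and in most depth. Results at 12 and 24 h are given with all arrays and without the low-signal ones. Of the markers of the labelled line, IRF4, CD74 and CCND2 lay at the 98.8 to 99.4 median percentile of an array and BATF at 79.0, while MS4A1, CD79A, CD79B, CD22 and POU2AF1 lay below the array median. Every T cell, myeloid, epithelial and erythroid marker also lay below it. In bulk RNA, fewer cells of a kind and less RNA per cell cannot be told apart.

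Changes are differences of mean log2 intensity from the 8 DMSO arrays of the same time, given with the standard error from limma. A gene was called, and is said to have risen or fallen, at a Benjamini-Hochberg adjusted p under 0.05 over 18239 genes within a contrast. All contrasts of a time share the same DMSO arrays, so a shift in those arrays would enter each of them. Where arrays are said to lie above or below DMSO, the share of all genes that did so is not given. Where a call was lost without a replicate, that replicate number was left out of all compounds at once, or a single DMSO array was. Such a loss is not tied to a single array of the named compound. At 6 h, 62 of 224 member and contrast pairs were called, 21 higher and 41 lower than DMSO, and 14.1% of all gene and contrast pairs were called. Of the 28 contrasts, 8 had 0 members called and 8 had at least 4.

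**Figure D1:**
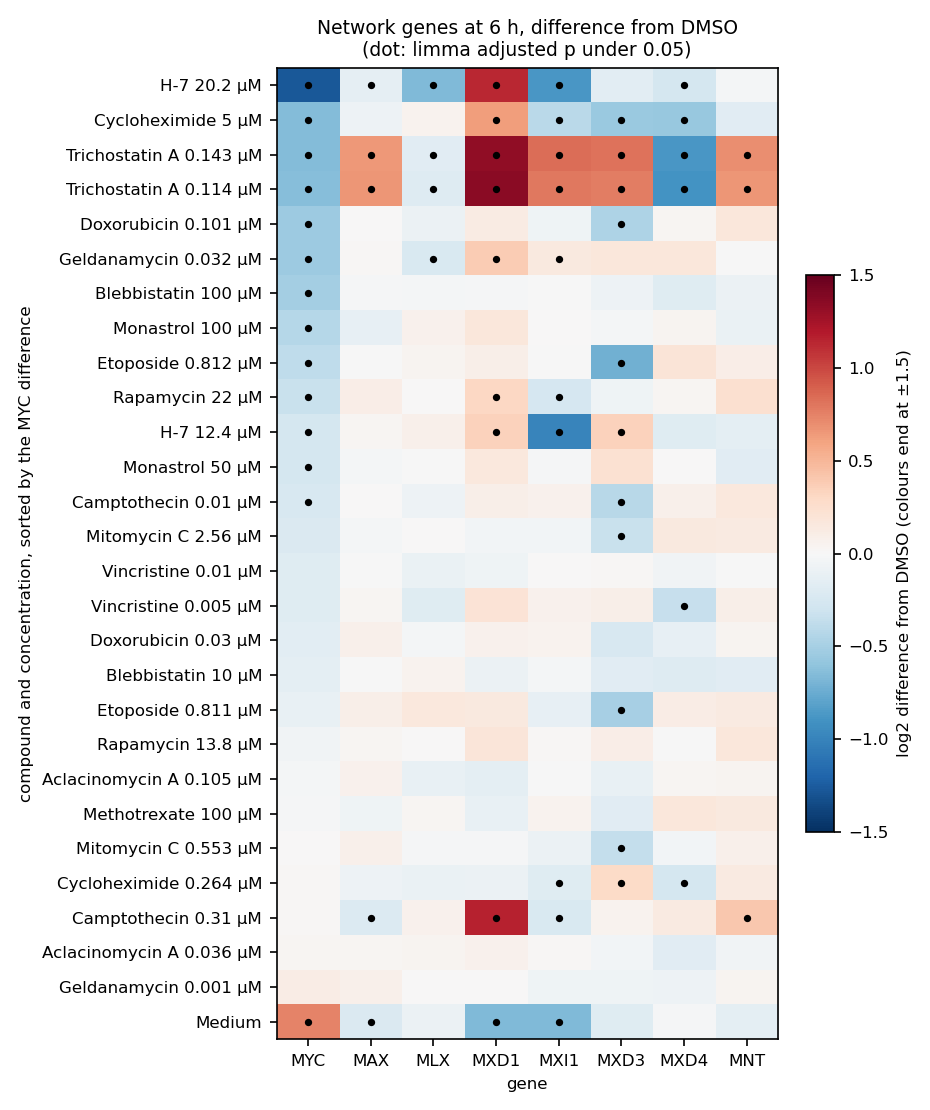
Change from DMSO at 6 h (log2, colour) for the 8 members (columns) in 28 contrasts (rows, sorted by MYC), with a dot where limma's adjusted p was under 0.05. MYC is lower than DMSO in most rows and highest in medium alone, while MXD1 reaches 1.35 with trichostatin A.

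MYC was lower than DMSO in most treatments at 6 h and higher in medium alone. It fell in 13 of 28 contrasts and rose in 1, beside 6.94% of all gene and contrast pairs that fell and 7.19% that rose. Its changes ran from -1.27 with H-7 to 0.75 in medium, and 22 of 28 were below 0. The 8 DMSO arrays read between 10.01 and 10.29 with a median of 10.21.

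The largest fall of MYC came with H-7 at 20.2 µM. The 3 arrays read 8.85, 8.95 and 8.95, all below every DMSO array. The change was -1.27 (SE 0.07, adjusted p = 4.22e-28), a 2.4-fold lower intensity. At 12.4 µM the arrays read 9.99, 9.81 and 9.94, also below all DMSO arrays but close to the lowest, and the change was -0.27 (adjusted p = 0.00166). That call was lost when replicate 2 of all compounds was left out. The higher concentration left MYC 1.0 lower than the other (SE 0.09, adjusted p = 1.05e-16).

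With cycloheximide at 5 µM, MYC read 9.3, 9.65 and 9.63, all below DMSO, and fell by 0.66 (adjusted p = 9.92e-13). At 0.264 µM it read 10.22, 10.2 and 10.17, within the DMSO range, and was not called. Trichostatin A gave 9.58, 9.57 and 9.45 at 0.143 µM and 9.63, 9.56 and 9.43 at 0.114 µM, and MYC fell by 0.65 and 0.64. All 6 of these arrays lay below DMSO, and 0 of 18239 genes differed between the 2 concentrations. Both compounds thus left MYC at a like distance below DMSO, with array ranges that overlap each other.

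The other falls of MYC were smaller. Doxorubicin at 0.101 µM read 9.61, 9.67 and 9.63, a fall of 0.55 (adjusted p = 6.67e-09). Geldanamycin at 0.032 µM read 9.59, 9.51 and 9.81, a fall of 0.55 (adjusted p = 3.86e-09). Blebbistatin at 100 µM read 9.65, 9.76 and 9.62, a fall of 0.51 (adjusted p = 8.22e-07). In each of these groups all arrays lay below the lowest DMSO array. Monastrol at 100 µM, etoposide at 0.812 µM and rapamycin at 22 µM also had all arrays below DMSO, with falls of 0.43, 0.38 and 0.34. Etoposide at the nearly equal 0.811 µM read 10.04 to 10.12, within the DMSO range, and MYC was not called there. The difference of -0.27 between these etoposide groups was not called (adjusted p = 0.33). MYC was called too with camptothecin at 0.01 µM (-0.24, adjusted p = 0.0359) and monastrol at 50 µM (-0.26, adjusted p = 0.042). Both calls were lost when single replicate numbers were left out.

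MYC rose only in medium alone, which lacks the vehicle of the DMSO arrays. The labels name DMSO only for the DMSO groups and do not say whether the compound wells held it. The 2 arrays read 11 and 10.86, both above the highest DMSO array. The change was 0.75 (SE 0.08, adjusted p = 7.25e-12), and 4 of 8 members were called in this contrast beside 25.5% of all genes. At 6 h camptothecin at 0.31 µM, which moved 46.9% of all genes at 6 h, gave MYC arrays of 10.21, 10.16 and 10.24. These lay inside the DMSO range, and the change was 0.02 (SE 0.07). With aclacinomycin A at 0.105 µM MYC read 10.18, 9.96 and 10.33, reaching beyond the DMSO range on both sides, and was not called.

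Ordered by mean, the 29 groups of 6 h ran from 10.93 in medium to 8.92 with H-7 at 20.2 µM, with DMSO in place 7. Of the 28 gaps between neighbours, 2 exceeded the standard deviations of both groups. They were the gap of 0.63 between medium and the next group, and the gap of 0.61 between trichostatin A at 0.143 µM and H-7 at 20.2 µM. The groups between these ends formed a continuous series in which neighbours did not differ beyond their spread.

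MAX, the shared partner of the whole network, was steadier than MYC. Its DMSO arrays at 6 h read between 10.71 and 10.87 with a median of 10.75. It rose in 2 of 28 contrasts and fell in 3, beside the same 14.1% of all pairs, and most groups overlapped DMSO. Trichostatin A at 0.143 µM gave 11.44, 11.35 and 11.45, all above DMSO, a rise of 0.65 (SE 0.05, adjusted p = 1.64e-20). At 0.114 µM the rise was 0.66. All 12 MAX probe sets had a difference of at least 0.01 with trichostatin A at 0.143 µM, up to 1.11.

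The falls of MAX were small. With camptothecin at 0.31 µM it read 10.7, 10.47 and 10.49 (-0.21, adjusted p = 0.000212), and medium gave 10.52 and 10.58 (-0.21, adjusted p = 0.00277). Both groups lay below all DMSO arrays. The arrays of H-7 at 20.2 µM read 10.56, 10.62 and 10.71, overlapping DMSO (-0.13, adjusted p = 0.0206). Averaged over its 12 probe sets, MAX lost all 3 of these calls, with changes of -0.01, -0.03 and 0.04.

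MLX, the MAX relative that links the network to the Mondo proteins, rose in 0 of 28 contrasts and fell in 4, a share near the 14.1% of all gene and contrast pairs called at 6 h. DMSO arrays read between 9.59 and 9.73 with a median of 9.71. MLX with H-7 at 20.2 µM read 8.84, 9.09 and 9.09, far below every DMSO array, a fall of 0.67 (SE 0.06, adjusted p = 5.13e-19). All 6 MLX probe sets were lower there, by 0.15 to 0.67. At 12.4 µM MLX read 9.73, 9.7 and 9.81 and was not called, and the higher concentration was 0.74 lower than the other.

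The remaining falls of MLX were with geldanamycin at 0.032 µM and both concentrations of trichostatin A. Geldanamycin gave 9.52, 9.43 and 9.39 (-0.23, adjusted p = 0.00122). Trichostatin A at 0.143 µM gave 9.52, 9.47 and 9.52 (-0.17, adjusted p = 0.00705). All of these arrays lay below DMSO by a narrow margin, and the trichostatin A call at 0.143 µM was lost without replicate 2.

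MXD1, a repressor linked to differentiation and exit from the cell cycle, had the widest range of changes among the repressors at 6 h. It rose in 8 of 28 contrasts and fell in 1, beside 7.19% of all gene and contrast pairs that rose and 6.94% that fell. Its changes ran from -0.66 to 1.35. DMSO arrays read between 8.02 and 8.26 with a median of 8.09. Trichostatin A at 0.143 µM gave 9.51, 9.44 and 9.37, a rise of 1.33 (SE 0.07, adjusted p = 2e-29). With camptothecin at 0.31 µM MXD1 read 9.3, 9.21 and 9.3, a rise of 1.16 (SE 0.07, adjusted p = 8.47e-26). For H-7 at 20.2 µM the arrays read 9.38, 9.21 and 9.16, a rise of 1.14 (SE 0.07, adjusted p = 3.28e-25). In these 3 groups every array lay far above the highest DMSO array. The other MXD1 probe set had a mean of only 4.84 over all arrays, beside 7.88 for the one used. Its difference from DMSO was 0.65 with trichostatin A at 0.143 µM and -0.01 with H-7 at 20.2 µM.

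MXD1 also rose with cycloheximide at 5 µM, where the arrays read 8.8, 8.77 and 8.64 (0.62, adjusted p = 7.48e-12). Geldanamycin at 0.032 µM gave 8.39, 8.4 and 8.68 (0.38, adjusted p = 3.65e-05). H-7 at 12.4 µM gave 8.4, 8.38 and 8.59 (0.34, adjusted p = 5.93e-05). Rapamycin at 22 µM gave 8.46, 8.31 and 8.51 (0.31, adjusted p = 0.000347). All of these arrays lay above the highest DMSO array. The geldanamycin and rapamycin calls were lost when the 2 MXD1 probe sets were averaged.

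The only fall of MXD1 was in medium, where the arrays read 7.54 and 7.37, both below DMSO (-0.66, SE 0.08, adjusted p = 5.18e-10). Medium thus had the highest MYC and the lowest MXD1 of the 29 groups of 6 h. The pair came apart with camptothecin at 0.31 µM, with MXD1 high and MYC within the DMSO range. Doxorubicin at 0.101 µM did the reverse, with MYC low and MXD1 at 8.25, 8.24 and 8.21, inside the DMSO range.

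**Figure D2:**
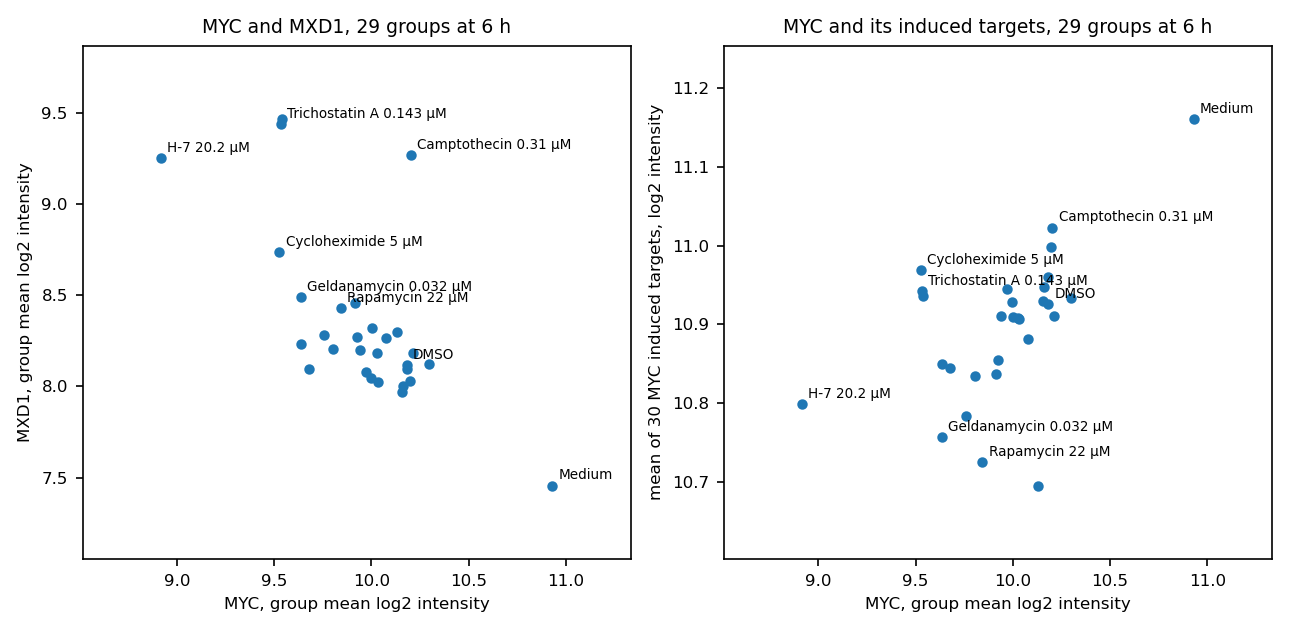
Group means at 6 h of MXD1 (left) and of the mean of 30 genes that MYC induces (right) against MYC, in log2 intensity, with 1 point per group. MYC and MXD1 had a Pearson r of -0.68 over 29 groups, and -0.51 without medium and H-7 at 20.2 µM.

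MXI1, another MAX-binding repressor, fell at both concentrations of H-7. DMSO arrays read between 9.91 and 10.13 with a median of 9.96. H-7 gave 9.15, 9.11 and 9.06 at 20.2 µM and 8.91, 9.13 and 8.9 at 12.4 µM. All 6 arrays lay below DMSO, with falls of 0.87 (adjusted p = 1.26e-27) and 1.0 (adjusted p = 3.57e-30). Thus MXI1, unlike MYC, MXD1 and MLX, was not called between the 2 concentrations of H-7.

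Trichostatin A moved MXI1 the other way. At 0.143 µM the arrays read 10.8, 10.81 and 10.82, all above DMSO, a rise of 0.83 (SE 0.05, adjusted p = 1.6e-26). All 5 MXI1 probe sets were higher there, by 0.81 to 1.24. Medium gave 9.34 and 9.29, both below DMSO, a fall of 0.66 (adjusted p = 3.9e-16). Cycloheximide at 5 µM gave 9.53, 9.64 and 9.56, rapamycin at 22 µM gave 9.69, 9.77 and 9.7, and camptothecin at 0.31 µM gave 9.82, 9.69 and 9.74. These 3 groups lay below DMSO as well, with falls of 0.40, 0.26 and 0.23. The camptothecin call was lost when the 5 probe sets were averaged. In all, MXI1 rose in 3 of 28 contrasts and fell in 7, beside 7.19% of all gene and contrast pairs that rose and 6.94% that fell. The third rise, with geldanamycin at 0.032 µM (0.15, adjusted p = 0.0322), overlapped DMSO and was lost when single replicate numbers were left out.

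MXD3, the family member known for expression in dividing cells, was called in 11 contrasts at 6 h. It rose in 4 of 28 and fell in 7, beside 7.19% of all gene and contrast pairs that rose and 6.94% that fell. DMSO arrays read between 7.04 and 7.58 with a median of 7.21, a wider spread than that of MYC. Its falls lay with some of the compounds that act on DNA and with cycloheximide at 5 µM. Etoposide at 0.812 µM gave 6.53, 6.53 and 6.55 (-0.72, adjusted p = 1.37e-08), and the nearly equal 0.811 µM gave 6.6, 6.75 and 6.94 (-0.49, adjusted p = 0.000127). Doxorubicin at 0.101 µM gave 6.68, 7.02 and 6.68 (-0.46, adjusted p = 0.000375). Cycloheximide at 5 µM gave 6.8, 6.7 and 6.61 (-0.55, adjusted p = 1.61e-06). All arrays of these groups lay below DMSO. At 0.264 µM cycloheximide went the other way, with 7.34, 7.41 and 7.88, which overlapped DMSO. That rise of 0.29 (adjusted p = 0.0446) was lost without replicate 2 or 3, and the higher concentration was 0.84 lower than the other (adjusted p = 1.07e-08).

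MXD3 fell too with camptothecin at 0.01 µM (-0.42) and with mitomycin C at 2.56 µM (-0.34) and 0.553 µM (-0.36). It was not called with camptothecin at 0.31 µM, methotrexate or aclacinomycin A. The higher concentration of camptothecin left MXD3 0.47 above the lower (limma adjusted p = 0.000492, beside 39.2% of all genes). With the 3 MXD3 probe sets averaged, each fall with a compound that acts on DNA lost its call, and the doxorubicin change was -0.20. With trichostatin A at 0.143 µM it read 8.02, 8.04 and 8.16, all above DMSO, a rise of 0.82 (SE 0.10, adjusted p = 6.96e-12). H-7 at 12.4 µM gave 7.65, 7.39 and 7.75, which overlapped DMSO (0.34, adjusted p = 0.00335, lost without replicate 3), and at 20.2 µM MXD3 was not called.

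MXD4, a repressor of resting and differentiated cells, rose in 0 of 28 contrasts and fell in 6 at 6 h. Of all gene and contrast pairs, 7.19% rose and 6.94% fell. DMSO arrays read between 9.07 and 9.34 with a median of 9.16. MXD4 with trichostatin A at 0.143 µM read 8.25, 8.3 and 8.33, far below DMSO, a fall of 0.87 (SE 0.08, adjusted p = 2.63e-17). All 5 MXD4 probe sets were lower there, by 0.49 to 0.87. MXD4 was thus the repressor of the network that fell with trichostatin A, while MXD1, MXI1, MXD3 and MNT rose.

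Cycloheximide at 5 µM gave MXD4 arrays of 8.43, 8.68 and 8.67, all below DMSO (-0.57, adjusted p = 1.54e-09). At 0.264 µM the fall was 0.26 (adjusted p = 0.0173), lost without replicate 3, and the vincristine fall at 0.005 µM (-0.35, adjusted p = 0.00581) was lost without replicate 2. H-7 at 20.2 µM gave 8.92, 8.95 and 8.86 (-0.26, SE 0.08, adjusted p = 0.00377), below DMSO in the probe set used. The 5 MXD4 probe sets disagreed in sign with H-7, and their mean gave 0.08.

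MNT, the broadly expressed antagonist of MYC, rose in 3 of 28 contrasts and fell in 0, a share no higher than the 14.1% of all pairs. DMSO arrays read between 8.58 and 8.79 with a median of 8.68. With trichostatin A at 0.143 µM MNT read 9.25, 9.51 and 9.38, a rise of 0.70 (SE 0.10, adjusted p = 1.52e-09). MNT with camptothecin at 0.31 µM read 9.02, 9.16 and 9.09, a rise of 0.41 (SE 0.10, adjusted p = 0.000219). Both groups lay wholly above DMSO. Medium gave 8.5 and 8.56, below DMSO but not called.

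Taken by treatment, trichostatin A was the contrast in which all 8 members were called at each concentration, beside 44.7% of all genes at 0.143 µM and 44.3% at 0.114 µM. MAX, MXD1, MXI1, MXD3 and MNT rose, and MYC, MXD4 and MLX fell. H-7 at 20.2 µM called 6 of 8 members, beside 50.0% of all genes, and MXD1 alone rose. H-7 at 12.4 µM called 4 of 8, beside 33.5%. Cycloheximide at 5 µM called 5 of 8, beside 33.4%, and MXD1 alone rose. The high concentration of camptothecin called 4 of 8, beside 46.9%, a share near the background. Geldanamycin at 0.032 µM called 4 of 8, beside 16.5%, and rapamycin at 22 µM called 3 of 8, beside 26.6%.

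With the low-count contrasts, doxorubicin at 0.101 µM called 2 of 8 members (MYC and MXD3, beside 7.14% of all genes) and etoposide at 0.812 µM called the same pair (beside 4.57%). Mitomycin C called only MXD3 at 2.56 µM (beside 2.97%) and at 0.553 µM (beside 0.938%). Blebbistatin at 100 µM and monastrol at both concentrations called only MYC, beside 2.59%, 7.59% and 1.47%. Camptothecin at 0.01 µM called MYC and MXD3 (beside 3.65%), etoposide at 0.811 µM called MXD3 (6.34%), cycloheximide at 0.264 µM called MXD3, MXD4 and MXI1 (9.77%) and vincristine at 0.005 µM called MXD4 (2.61%). Methotrexate and aclacinomycin A at both concentrations called 0 members at 6 h by limma, beside 1.76%, 0.773% and 0.0% of all genes.

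Between concentrations at 6 h, 22 of 104 member and compound pairs were called, beside 8.51% of all genes, over 13 compounds. MYC was lower at the higher concentration of H-7 (-1.0), cycloheximide (-0.67), geldanamycin (-0.66), doxorubicin (-0.39) and rapamycin (-0.29). All genes called in these contrasts were 30.8%, 21.2%, 9.9%, 1.5% and 6.16%. It was higher at the higher concentration of camptothecin, by 0.26 (adjusted p = 0.0102, beside 39.2% of all genes), where the lower concentration had the fall. MXD1 was higher at the higher concentration of camptothecin by 1.07 (SE 0.09, adjusted p = 5.36e-19), of H-7 by 0.79, of cycloheximide by 0.71 and of geldanamycin by 0.37. The calls of MYC for camptothecin, doxorubicin and rapamycin were each lost when single replicate numbers were left out. Etoposide, with nearly equal labels, gave 0 member calls by limma and 0.214% of all genes. At 24 h, 6 of 104 such pairs were called, beside 2.69% of all genes, and 19 of 96 without low-signal arrays, beside 10.4%. The 6 were MYC, MXD3 and MXD4 with cycloheximide (-1.07, -1.72 and -1.73, 6.48% of all genes), MYC and MAX with mitomycin C (-1.08 and -1.37, 5.65%) and MXD4 with H-7 (1.38, 19.2%), and each was lost under some alternative, among them leaving out 1 replicate.

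Other genes of the pathway were read from lists, described by counts and medians beside the share called and the median of all genes. The first list held 30 measured genes that MYC is known to induce, mostly of ribosome assembly, nucleotide synthesis and growth. In medium at 6 h, 14 rose and 2 fell, beside 25.5% of all genes called, with a median of 0.18 beside -0.01 for all genes. NOP16 and PPAN, both of ribosome assembly, rose by 0.89 and 0.66, and WDR43 and MRTO4 rose by 0.59 and 0.56. With geldanamycin at 0.032 µM, 1 rose and 15 fell (beside 16.5% of all genes, median -0.17 beside 0.00), led by NOP16 at -0.80, and the chaperonin HSPD1 rose by 0.63. With rapamycin at 22 µM, 3 rose and 14 fell (beside 26.6% of all genes, median -0.16 beside -0.01), led by NOP16 at -1.2. Rapamycin at 13.8 µM, where MYC read 9.99, 10.18 and 10.22 and was not called, had 1 rise and 15 falls (beside 17.8%, median -0.15).

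In the contrasts with larger falls of MYC the induced genes were mixed. With H-7 at 20.2 µM, 7 rose and 11 fell (beside 50.0% of all genes, median -0.05 beside 0.03), with PPAN at -1.65, the RNA polymerase I subunit POLR1B at -0.86 and the pyrimidine enzyme CAD at -0.51. With trichostatin A at 0.143 µM, 7 rose and 12 fell (beside 44.7%, median -0.01 beside -0.01), with BOP1 up by 1.2 and the polyamine enzyme ODC1 up by 0.71. With cycloheximide at 5 µM, 11 rose and 7 fell (beside 33.4%, median 0.04 beside -0.03). With camptothecin at 0.31 µM, where MYC was not called, 10 rose and 6 fell (beside 46.9%, median 0.06 beside 0.06).

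Of 8 genes that MYC is known to repress, 6 rose and 0 fell with camptothecin at 0.31 µM (beside 46.9% of all genes, median 0.71 beside 0.06), led by the cell cycle inhibitors CDKN2B (2.40) and CDKN1A (1.51) and by GADD45A (1.27). CDKN1A and GADD45A are also targets of p53. With trichostatin A, 5 rose and 2 fell (beside 44.7%, median 0.35), with CDKN2B at 1.67, CDKN1C at 1.39 and CDKN1B at -0.75. With cycloheximide at 5 µM, 5 rose and 1 fell (beside 33.4%, median 0.46), and in medium 1 rose and 4 fell (beside 25.5%, median -0.22), led by GADD45B at -1.02. With H-7 at 20.2 µM, 1 rose and 4 fell (beside 50.0%, median -0.12), led by GADD45B at -0.62.

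Among 10 cofactors that MYC recruits, 3 rose and 6 fell with trichostatin A at 0.143 µM (beside 44.7% of all genes, median -0.53 beside -0.01). ZBTB17, through which MYC represses genes, fell by 1.19, HCFC1 by 1.14, TRRAP by 1.0 and the acetyltransferase KAT5 by 0.90. In medium 6 rose and 0 fell (beside 25.5%, median 0.24), with RUVBL1 at 0.44, and with rapamycin at 22 µM 0 rose and 5 fell (beside 26.6%, median -0.21). Of 11 genes that control MYC, 3 rose and 7 fell with H-7 at 20.2 µM (beside 50.0%, median -0.22 beside 0.03). FBXW7, the ubiquitin ligase subunit that marks MYC protein for decay, rose by 1.02, and USP28, which opposes it, fell by 0.86. With trichostatin A, 4 rose and 5 fell (beside 44.7%), with CTCF at -1.55 and FBXW7 at 1.05.

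In the extended network of 7 genes, 2 rose and 4 fell with H-7 at 20.2 µM (beside 50.0% of all genes, median -0.42), with the corepressor SIN3B at -0.71, the Mondo gene MLXIP at -0.54 and the MAX partner MGA at -0.47, while SIN3A rose by 0.44. With trichostatin A, 3 rose and 1 fell (beside 44.7%), with MLXIP at 1.07 and MGA at -0.73. Of 4 targets of MLX and the Mondo proteins, 3 rose and 0 fell with cycloheximide at 5 µM (beside 33.4%, median 0.67), with ARRDC4 at 1.49 and KLF10 at 1.04. With H-7 at 20.2 µM, where MLX fell, 0 of these 4 rose or fell by limma, beside 50.0%.

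Over the 29 group means of 6 h, which share 1 laboratory, time and array type, the genes most like MYC among 9119 genes at or above the median level were PPAN (Pearson r 0.84), MED22 (0.84), MSTO1 (0.83), TFAP4 (0.82) and PHF23 (0.81). PPAN is also on the list of induced genes, and TFAP4 is a known target of MYC. The genes most opposed to MYC were CEP85L (-0.84), FBXO34 (-0.79), GPCPD1 (-0.76), RLF (-0.76) and SUSD6 (-0.75). For MXD1 the nearest were SLC25A44 (0.92) and ISYNA1 (0.91), for MAX C4orf33 (0.93) and ATP6V1A (0.93), and for MXI1 CREG1 (0.94) and SOAT1 (0.93). For MXD4 they were BDH2 (0.89) and TNFRSF1A (0.89), for MXD3 TNFAIP8L1 (0.89) and SPDL1 (0.83), for MNT RAD9A (0.89) and WDR83 (0.88), and for MLX MRPS18A (0.86) and TMEM216 (0.84).

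Among members, the group means of MAX went with those of MXI1 (r 0.72) and MNT (0.72) and against those of MXD4 (-0.70), and those of MYC went with MLX (0.54) and against MXD1 (-0.68). The mean of the 30 induced genes had an r of 0.54 with MYC, and 0.28 without medium and H-7 at 20.2 µM, so this relation rested largely on those groups.

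At 12 h, 20 of 224 member and contrast pairs were called with all arrays, beside 2.72% of all genes, and 48 of 192 without the 31 low-signal arrays, beside 9.0%. With all arrays MYC fell in 8 contrasts and MXD1 rose in 4. Of all gene and contrast pairs in that fit, 1.58% fell and 1.14% rose. Without low-signal arrays MYC fell in 11 of 24 contrasts and rose in 2, and MXD1 rose in 5. There 4.24% of all pairs fell and 4.76% rose. DMSO arrays of MYC read between 10.01 and 10.33, and those of MXD1 between 5.52 and 8.14, a range that the low-signal arrays widened. Camptothecin at 0.31 µM, which had left MYC within the DMSO range at 6 h, gave MYC arrays of 9.13, 9.2 and 9.4, all below DMSO, a fall of 0.95 (SE 0.26, adjusted p = 0.01). MXD1 remained high there at 8.95, 8.45 and 9.0, a rise of 1.62 (SE 0.34, adjusted p = 0.000377). Without low-signal arrays that rise was 1.275 (adjusted p = 2.08e-07). Of the 8 members, MYC and MXD1 were called in this contrast beside 9.12% of all genes.

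Trichostatin A at 0.143 µM had 4 of 8 members called at 12 h, beside 10.5% of all genes. MYC read 8.87, 8.93 and 8.24, all below DMSO, a fall of 1.51 (adjusted p = 1.42e-05). MXD1 read 9.36, 8.81 and 9.2, all above DMSO, a rise of 1.94 (adjusted p = 1.72e-05). MXI1 rose by 1.05 and MXD4 fell by 1.06, and MYC and MXD1 were called at 0.114 µM too (beside 7.8%). These 4 members kept their 6 h directions, and the calls of MXI1 and MXD4 were lost without replicate 1 or 3. Without low-signal arrays MXD3, MAX and MNT were also called there, with rises of 1.36, 0.66 and 0.57. In that fit MXD1 rose by 1.58 and MYC fell by 1.715.

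MYC fell at 12 h with rapamycin at 22 µM (-1.06, adjusted p = 0.00792, beside 4.96% of all genes), cycloheximide at 5 µM (-0.995, adjusted p = 0.0192, beside 2.93%), doxorubicin at 0.101 µM (-0.98, adjusted p = 0.0191, beside 3.6%) and geldanamycin at 0.032 µM (-1.09, adjusted p = 0.0291, beside 0.455%). All 3 doxorubicin arrays of that group were low-signal, so it has no value without them. These 4 calls, and that of MYC with camptothecin, were lost when replicate 3 of the compounds was left out. Without low-signal arrays MYC was called with cycloheximide (-1.07), geldanamycin (-1.285) and camptothecin (-1.005). With rapamycin at 22 µM it was 1.04 lower in the only array left. In that fit MYC also fell, among others, with monastrol at 100 µM (-0.79) and mitomycin C at 2.56 µM (-0.505). It rose with H-7 at 12.4 µM (0.53). Geldanamycin at 0.001 µM called 5 of 8 members, beside 28% of all genes, and all 5 rested on replicate 2. MYC read 10.48, 7.0 and 10.29 there and MLX 9.66, 4.9 and 9.63, and without that low-signal array 0 members were called by limma, beside 0.0% of all genes.

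With H-7 at 20.2 µM MYC was not low at 12 h. The arrays read 10.42, 10.48 and 10.34, all above the DMSO arrays, and MYC was not called. MXI1 read 8.97, 8.72 and 8.96 and, without low-signal arrays, fell by 1.22 (adjusted p = 4.25e-14, beside 25.8% of all genes). In medium MYC read 10.96 and 10.99, above DMSO, and without low-signal arrays rose by 0.70 (adjusted p = 1.93e-06, beside 14.4% of all genes). MXI1 in medium read 9.34 and 9.32, below DMSO, a fall of 0.77 in the same fit. The DMSO arrays of MXD3 read between 5.56 and 7.16 at 12 h. With all arrays its change was above 0 in 13 of 28 contrasts, and it was called only with doxorubicin at 0.101 µM, as a fall of 1.41 (adjusted p = 0.0467). Without low-signal arrays, a fit that holds no arrays of that doxorubicin group, its change was above 0 in 24 of 24 contrasts and called in 8, and these contrasts share the 4 DMSO arrays left.

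At 24 h, 17 of 224 pairs were called with all arrays, all of them falls, beside 5.61% of all genes. Without the 17 low-signal arrays 83 of 216 were called, 37 higher and 46 lower, beside 18.3%. MYC fell in 6 contrasts with all arrays, and in 15 of 27 without the low-signal ones, where it rose in 2. Its DMSO arrays read between 10.38 and 10.94 with a median of 10.67.

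**Figure D3:**
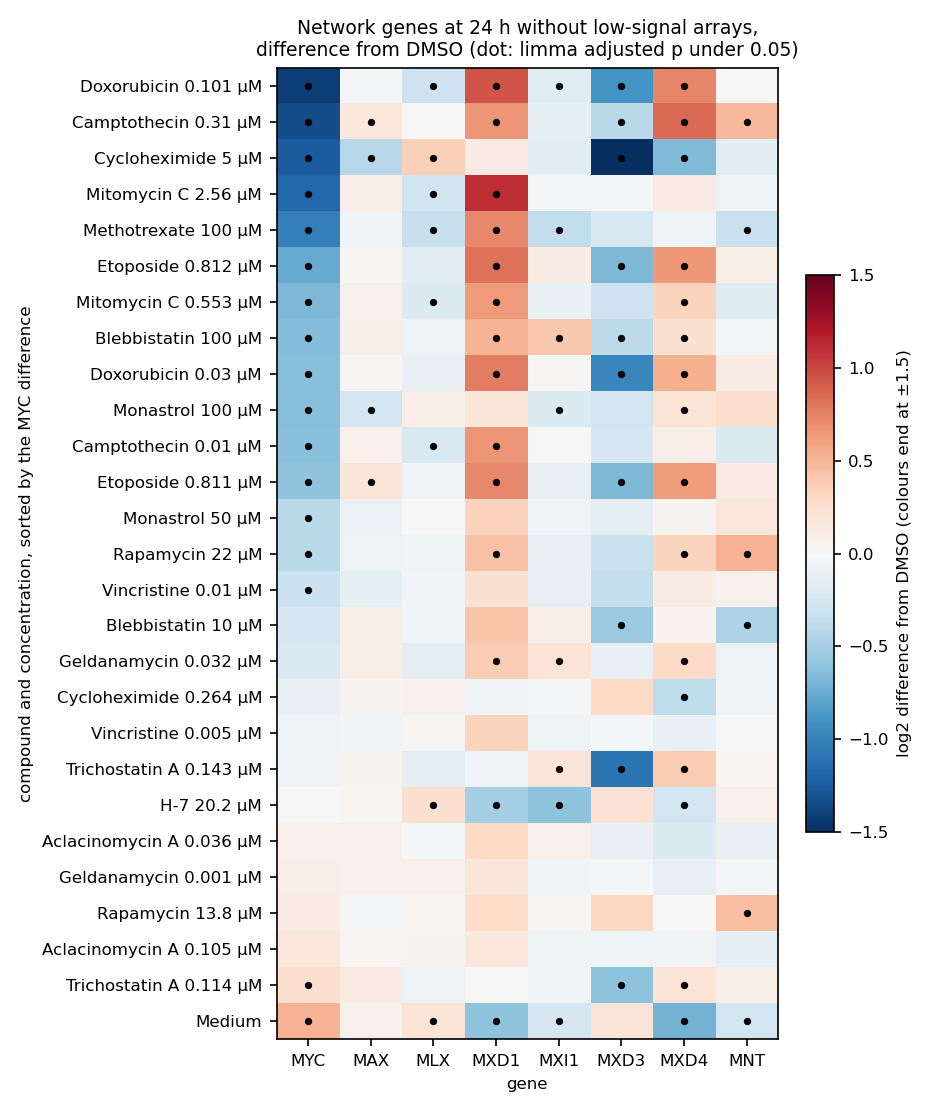
Change from DMSO at 24 h (log2, colour) for the 8 members (columns) in 27 contrasts (rows, sorted by MYC), fitted without low-signal arrays, with colours ending at 1.5 in either direction and a dot where limma's adjusted p was under 0.05. MYC is lower under the compounds that act on DNA except aclacinomycin A. It also fell under cycloheximide, blebbistatin, rapamycin and vincristine at their higher concentrations and under monastrol at both. MXD1 and MXD4 are higher in most of the rows where MYC fell.

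With all arrays, the 3 largest falls of MYC at 24 h were with compounds that act on DNA. Without low-signal arrays the order was doxorubicin (-1.41), camptothecin (-1.33), cycloheximide (-1.25) and mitomycin C (-1.17). In that fit cycloheximide had only a single array left, and camptothecin and mitomycin C had each lost an array, so this order is not settled. Mitomycin C at 2.56 µM read 9.43, 7.76 and 9.54, a fall of 1.75 (SE 0.25, adjusted p = 2.11e-07), and of 1.17 (SE 0.09, adjusted p = 5.16e-17) without the low-signal replicate 2, which read lowest. Camptothecin at 0.31 µM read 8.9, 9.33 and 9.33, a fall of 1.47 (SE 0.25, adjusted p = 4.48e-06). Doxorubicin at 0.101 µM read 9.17, 9.28 and 9.3, a fall of 1.41 (SE 0.25, adjusted p = 2.08e-05). The 6 methotrexate arrays read between 9.5 and 9.75 with a median of 9.63, a fall of 1.03 (SE 0.20, adjusted p = 0.000109). If these are repeats of 3 samples, that error is too small. All of these arrays lay below the lowest DMSO array. With all arrays, 5 of 8 members were called with mitomycin C at 2.56 µM (beside 25.8% of all genes) and MYC alone with camptothecin (8.21%), doxorubicin (6.07%) and methotrexate (4.74%).

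In the mitomycin C contrast, the falls of MAX, MLX, MNT and MXI1 came from replicate 2. MAX read 10.61, 6.37 and 10.47, MLX 9.49, 6.73 and 9.26, MNT 8.49, 5.27 and 8.44, and MXI1 9.89, 7.17 and 9.86. The other arrays of MAX and MXI1 lay within or next to the DMSO range. Without low-signal arrays MAX, MNT and MXI1 were not called, at 0.10, -0.07 and -0.02, and MLX fell by 0.30, while MXD1 rose by 1.11 (SE 0.14, adjusted p = 4.1e-10, with 29.8% of all genes called).

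Etoposide left MYC at 9.89, 9.82 and 9.98 at 0.812 µM, all below DMSO. Without low-signal arrays it fell by 0.76 there and by 0.61 at 0.811 µM. The lower concentrations of doxorubicin, camptothecin and mitomycin C had falls of 0.64, 0.63 and 0.67 in the same fit. Aclacinomycin A, the other anthracycline, gave MYC arrays of 10.82, 10.81 and 10.86 at 0.105 µM, within the DMSO range, and 0 members were called by limma with or without low-signal arrays, beside 0.0% of all genes in each. Doxorubicin and aclacinomycin A differ in concentration, so their values stand side by side and were not compared.

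Falls of similar size to those of the low concentrations came with compounds that do not act on DNA. Without low-signal arrays MYC fell by 0.65 with blebbistatin at 100 µM (adjusted p = 2.49e-09, beside 14.2% of all genes) and by 0.64 with monastrol at 100 µM (adjusted p = 2.35e-07, beside 32.8%). Smaller falls came with monastrol at 50 µM (-0.41, beside 1.4% of all genes), rapamycin at 22 µM (-0.40, beside 27.7%) and vincristine at 0.01 µM (-0.33, beside 9.23%). MXD1 and MXD4 rose with blebbistatin at 100 µM (0.51 and 0.23), rapamycin at 22 µM (0.44 and 0.33) and geldanamycin at 0.032 µM (0.38 and 0.29, beside 5.2%), and in the last MYC was not called. With all arrays these members were not called by limma in these contrasts.

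MXD1 and MXD4 were higher with most compounds that act on DNA at 24 h. Doxorubicin at 0.101 µM gave MXD1 arrays of 8.34, 8.19 and 8.49, beside 6.89 to 7.61 in DMSO. It gave MXD4 arrays of 9.69, 9.71 and 9.77, beside 8.83 to 9.14 in DMSO. No array overlapped DMSO for either gene, and the share of all genes without overlap is not given. Without low-signal arrays MXD1 rose by 0.95 (adjusted p = 2.48e-10) and MXD4 by 0.73 (adjusted p = 2.34e-14), with 35.7% of all genes called. With all arrays neither was called, at the larger standard errors given above.

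Etoposide at 0.812 µM gave MXD1 8.16, 8.15 and 8.3 and MXD4 9.74, 9.6 and 9.59, also clear of DMSO, with rises of 0.81 and 0.65 without low-signal arrays. Camptothecin at 0.31 µM had rises of 0.66 and 0.85 in that fit. With methotrexate MXD1 read 7.99 to 8.25 over 6 arrays, all above DMSO, and rose by 0.71 in that fit, and MXD4 was not called. Without low-signal arrays MXD1 rose in 12 of 27 contrasts and fell in 2, and MXD4 rose in 12 and fell in 4. Of all gene and contrast pairs in that fit, 8.79% rose and 9.51% fell. With all arrays MXD4 rose in 0 contrasts and fell in 2, beside 2.38% and 3.23% of all pairs. MXD4, which rose in 0 contrasts at 6 h, thus had more rises than falls at 24 h only without low-signal arrays. Other arrays and another number of contrasts enter that fit.

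MXD3 was lower in all contrasts in which it was called at 24 h. Without low-signal arrays these were 10 of 27, beside 9.51% of all gene and contrast pairs that fell. Doxorubicin at 0.101 µM gave 5.75, 5.76 and 5.78, and the low-signal DMSO array read 5.63 beside a DMSO median of 6.56. Without low-signal arrays MXD3 fell by 0.90 with doxorubicin, 0.68 with etoposide at 0.812 µM and 0.41 with camptothecin at 0.31 µM. With trichostatin A at 0.143 µM it read 3.76, 5.49 and 5.65, a fall of 1.56 (adjusted p = 0.000698, beside 5.0% of all genes). The call was lost without replicate 1, the low-signal array that read 3.76, at -0.96, and without all low-signal arrays the fall was 1.09.

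MYC was not low with trichostatin A at 24 h. The arrays read 10.69, 10.62 and 10.6 at 0.143 µM and 11.03, 10.88 and 10.77 at 0.114 µM, all overlapping DMSO. Without low-signal arrays the changes were -0.05, not called, and 0.24 (adjusted p = 0.0316). H-7 at 20.2 µM also left MYC near DMSO, at 10.82, 10.48 and 10.2, but MXI1 stayed low at 9.23, 9.34 and 7.05, a fall of 1.36 (SE 0.28, adjusted p = 0.000822, beside 20.7% of all genes). The call was lost without replicate 3, the low-signal array at 7.05, and without all low-signal arrays the fall was 0.61 (adjusted p = 1.31e-09).

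All 3 arrays of H-7 at 12.4 µM were low-signal at 24 h, so its 4 member calls (beside 59.1% of all genes) have no value without them. Cycloheximide at 5 µM had 2 low-signal arrays of 3. MYC read 8.99, 9.41 and 10.02 there, all below DMSO, and fell by 1.19 (adjusted p = 0.000448, beside 13.5% of all genes). MXD4 read 7.21, 8.33 and 5.1, a fall of 2.10 with all arrays and of 0.66 from the 1 array left without the low-signal ones.

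In medium at 24 h MYC was high and MXD1 and MXI1 low, as at 6 h, while MXD4, near DMSO at 6 h (-0.01), was low. MYC read 11.21 and 11.14, above DMSO, MXD1 6.79 and 6.79, below it, MXI1 9.63 and 9.66, below it, and MXD4 8.35 and 8.21, below it. No array of these 4 genes overlapped DMSO. The share of all genes without overlap is not given, so this alone does not set the 4 genes apart from other genes. With all arrays 0 members were called by limma, beside 0.713% of all genes. Without low-signal arrays MYC rose by 0.52 (adjusted p = 1.35e-05), and MXD4, MXD1 and MXI1 fell by 0.71, 0.60 and 0.25, beside 20.2% of all genes. MLX rose by 0.21 (adjusted p = 0.0468) and MNT fell by 0.29 (adjusted p = 0.0411) in that fit, and neither had been called at 6 h. MAX, which fell at 6 h, was not called (0.08). The change from 6 to 24 h, tested without low-signal arrays, was called for MXD4 (-0.70, adjusted p = 0.00017), MXI1 (0.41, adjusted p = 0.00704) and MAX (0.30, adjusted p = 0.0246), beside 6.92% of all genes, and with all arrays for 0 members by limma, beside 0.0219%.

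**Figure D4:**
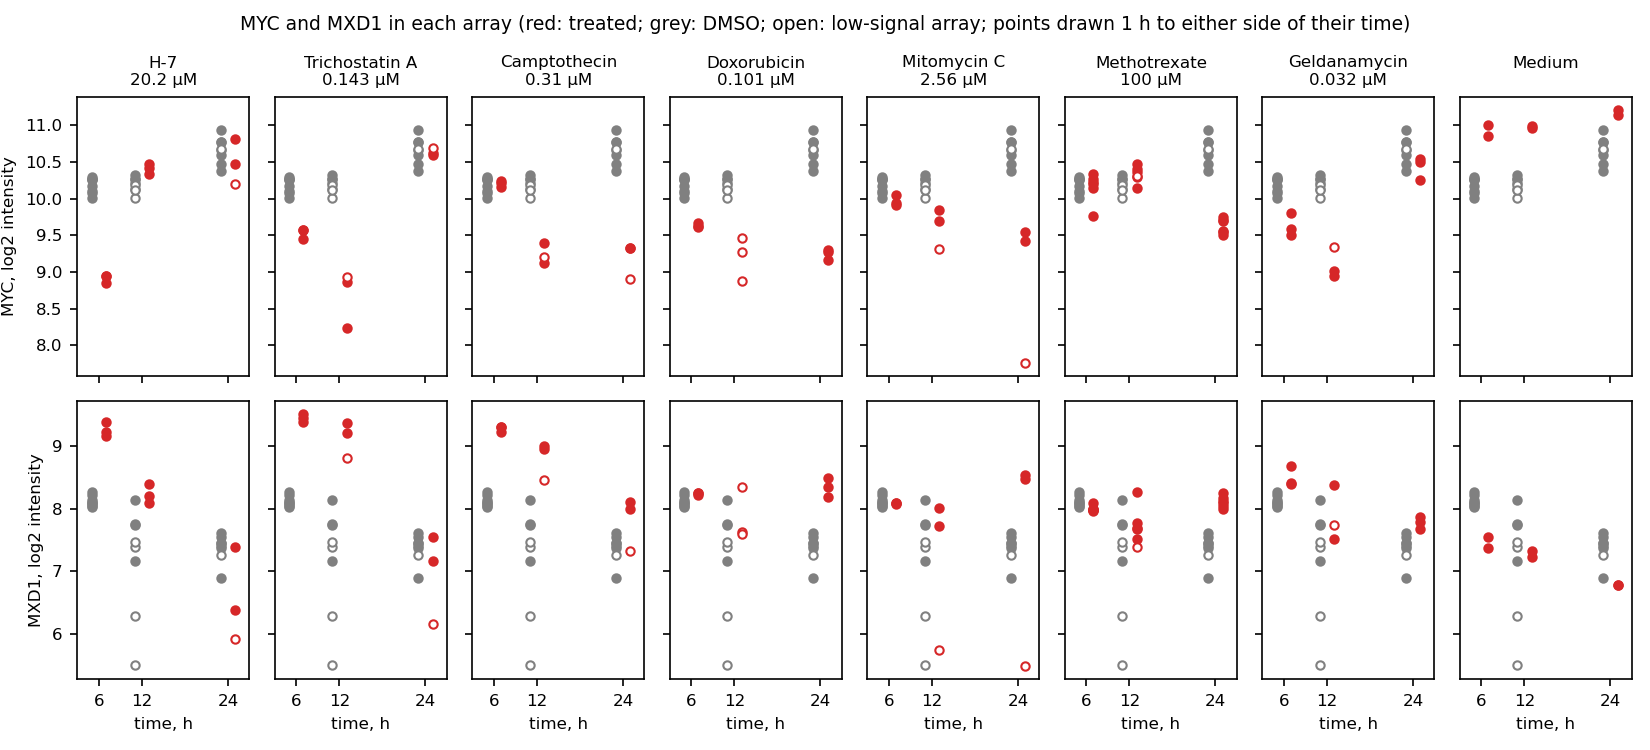
Log2 intensity of MYC (top) and MXD1 (bottom) in every array at 6, 12 and 24 h for 7 compounds and medium (red) beside DMSO (grey), with low-signal arrays as open points. MYC under H-7 at 20.2 µM is low only at 6 h, while under camptothecin it is within DMSO at 6 h and below it at 12 and 24 h.

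The change of an effect between 6 and 24 h was tested itself, at the higher concentration of each compound and in medium. Of 120 member and treatment pairs, 11 were called, beside 2.99% of all genes. The shares of all genes in the contrasts with a member called were 1.92% for camptothecin, 2.51% for methotrexate, 12.8% for mitomycin C, 12.7% for H-7, 9.81% for trichostatin A and 3.65% for cycloheximide. The effect on MYC moved down with camptothecin by 1.49 (SE 0.30, adjusted p = 0.000347), with methotrexate by 1.01 (adjusted p = 0.00305) and with mitomycin C by 1.54 (adjusted p = 0.000176). It moved up with H-7 at 20.2 µM by 1.11 (adjusted p = 0.00624). For MXD1 the effect moved down with H-7 by 1.94 (adjusted p = 0.000279) and with trichostatin A by 1.74 (adjusted p = 0.000973), and for MXD3 with trichostatin A by 2.38 (adjusted p = 2.88e-05). Without low-signal arrays these 7 changes kept their direction, at -1.35, -1.01, -0.96, 1.26, -1.64, -1.36 and -1.91 in the order given. With all arrays, leaving out replicate 1 of the compounds lost the calls of MYC for camptothecin, methotrexate and H-7 and of MXD1 for trichostatin A. The other 4 calls (MXD4 with cycloheximide, and MAX, MLX and MNT with mitomycin C) were each lost without 1 low-signal replicate. Without all low-signal arrays 38 of 120 pairs were called, beside 15.7% of all genes, and among those 4 only MLX with mitomycin C stayed called (-0.31, adjusted p = 0.0286, beside 18.9%).

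The counts of the induced genes at 24 h depended on the arrays used. With doxorubicin at 0.101 µM, 0 rose and 6 fell with all arrays, and 1 rose and 25 fell of 30 without low-signal arrays (beside 35.7% of all genes, median -0.45 beside 0.00 for all genes). NOP16 fell by 1.34, CAD by 1.31, the rRNA-modifying enzyme subunit DKC1 by 1.30 and the spermidine synthase SRM by 1.15 in that fit. Mitomycin C at 2.56 µM had 3 up and 24 down (beside 29.8%, median -0.38), methotrexate 1 up and 22 down (beside 35.6%, median -0.24) and camptothecin at 0.31 µM 2 up and 16 down (beside 34.0%, median -0.20). Trichostatin A at 0.143 µM, where MYC was not called, had 1 up and 22 down (beside 31.2%, median -0.26), and medium had 19 up and 1 down (beside 20.2%, median 0.27). GADD45A, of the repressed list, rose by 2.02 with doxorubicin, and 6 of its 8 genes rose and 0 fell.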

How the data were processed

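Gene expression was measured on 282 Affymetrix HT HG-U219 arrays, grouped by the compound, concentration and time in the labels. The deposited values are log2 intensities per probe set, made with RMA per the submitters' processing notes, without a version; they ran from 2.78 to 14.66. RMA quantile normalization gives arrays 1 distribution, yet the upper quartile differed between arrays at 12 and 24 h, and detection calls were not used. Of 49386 probe sets, 93 were controls, 45253 had 1 gene symbol, 1327 several and 2713 none, and the last 2 kinds were left out. The probe set with the highest mean stood for each of 18239 genes.

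The 94 arrays of a time entered 1 model of group means (limma 3.58.1, R 4.3.3, eBayes with a trend), and all 282 entered the model for the change from 6 to 24 h. Adjusted p-values are Benjamini-Hochberg values over all genes of a contrast. The number of arrays limits the precision. The script was tested on simulated data. All 8 members were named in any contrast, up to 4 called genes of the largest change from each list, and genes by correlation with members over the group means at 6 h. Contrasts described in depth were those with the largest called changes of MYC or at least 4 members called at 6 h. The members and lists were chosen with earlier results of these data known. Alternatives were another quantile normalization, leaving out the dimmest 40% of genes, the mean of all probe sets, only the groups compared and a replicate block. Others were leaving out low-signal arrays, bioB as a covariate, array weights, averaged methotrexate arrays and leaving out each replicate. Replicates were left out by number, from all compounds at once or from DMSO, so no compound group was changed alone. Replicate numbers were not used to pair samples in the main fit. The median correlation of same-numbered arrays was 0, -0.001 and 0.004 at 6, 12 and 24 h. At these times 91, 287 and 275 of 975 same-numbered pairs had a correlation over 0.1. The median therefore cannot show that no arrays were paired. Promoter windows were RefSeq's (GRCh38.p14). Tables and figures were made in Python 3.11.15 (pandas 2.3.3, numpy 2.4.6, matplotlib 3.10.9).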

Additional observations from a re-analysis of the deposited data

Results flagged for a closer look

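Groups of 4 to 10 arrays (DMSO and methotrexate) were searched for an array far from the others of its group. In 11 of 48 member and group pairs there was such an array, where chance gives about 1 in 20 for a single pair. All members were read on the same arrays, so the pairs are not independent trials. At 6 h methotrexate had a MYC array at 9.77 (next 10.15), a MAX array at 10.43 (next 10.69), an MXD1 array at 8.09 (next 8.0) and an MNT array at 9.5 (next 8.78). At 12 h the same low-signal methotrexate array was far for MAX at 10.2 (next 10.65), MXD3 at 4.49 (next 5.9) and MXI1 at 9.0 (next 9.73). DMSO had an MXI1 array at 10.13 at 6 h (next 9.98), a low-signal MAX array at 9.89 at 12 h (next 10.44), a low-signal MXD3 array at 5.63 at 24 h (next 6.44) and an MXI1 array at 9.72 at 24 h (next 9.87).

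The difference from DMSO changed between 6 and 24 h, by limma's test of that change, for 11 member and treatment pairs. MYC changed by -1.49 with camptothecin, -1.01 with methotrexate, -1.54 with mitomycin C and 1.11 with H-7. MXD1 changed by -1.94 with H-7 and -1.74 with trichostatin A, and MXD3 by -2.38 with trichostatin A. MXD4 changed by -1.53 with cycloheximide, and MAX, MLX and MNT by -1.25, -1.24 and -1.18 with mitomycin C. Without low-signal arrays the last 4 were -0.09, 0.12, -0.31 and -0.21, and of these only MLX stayed called (adjusted p = 0.0286).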

How the results depend on the processing

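Of the member and contrast pairs called with all arrays, 38 of 62 at 6 h, 5 of 20 at 12 h, 7 of 17 at 24 h, 9 of 22 between concentrations at 6 h, 0 of 6 between concentrations at 24 h and 3 of 11 for the change with time kept direction and call under every alternative run. The count of calls at 6 h ranged from 52 to 76 over alternatives. The count between concentrations at 6 h ran from 14 to 23 when single replicates were left out. At 12 h it was 11 with the replicate block, 48 without low-signal arrays, 57 with array weights and 11 to 34 with single replicates left out. At 24 h it was 26 after another quantile normalization, 45 with only the groups compared, 83 without low-signal arrays and 79 with array weights. Between concentrations at 24 h these were 11 after normalization, 19 without low-signal arrays and 23 with weights, and for the change with time 29 with only the groups compared, 38 without low-signal arrays and 41 with weights. The replicate block gave 52, 11 and 14 calls at 6, 12 and 24 h and 22, 5 and 11 in the other comparisons. With the mean of all probe sets, MAX and MXD4 turned to 0.043 and 0.077 with H-7 at 20.2 µM at 6 h. With geldanamycin at 0.001 µM at 12 h, values without low-signal arrays and with weights were 0.022 and 0.033 for MLX, 0.028 and 0.082 for MXI1 (0.245 as the mean of probe sets) and 0.115 and 0.146 for MYC, and 0.008 for MAX with weights. Leaving out single replicates gave -2.325 to 0.055, -1.971 to 0.169, -1.546 to 0.194 and -1.509 to 0.111 for these genes, the highest without replicate 2. With mitomycin C at 2.56 µM at 24 h MAX had 0.097 without low-signal arrays, 0.081 with weights and -2.01 to 0.11 with single replicates left out, MNT had -1.593 to 0.018, and MAX had 0.017 between concentrations without low-signal arrays. For the change with time MAX had 0.124, 0.108 and -1.991 to 0.129. Apart from the low-signal arrays, the cause was not tested.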

Other observations

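MYCN, a relative of MYC outside the members, fell as well at 24 h with most of the compounds that act on DNA. With all arrays it fell by 0.73 with doxorubicin at 0.101 µM, 0.90 with camptothecin at 0.31 µM, 0.94 with mitomycin C at 2.56 µM, 1.01 with methotrexate and 1.13 with etoposide at 0.812 µM, by limma with all adjusted p under 0.05. Without low-signal arrays these falls were 0.80, 1.05, 1.33, 1.08 and 1.21, and MYCN rose by 0.71 in medium. With trichostatin A at 0.143 µM, where MYC was not called, MYCN fell by 0.99 without low-signal arrays. All of these contrasts share the DMSO arrays of 24 h.

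SKP2, a ubiquitin ligase subunit that acts on MYC protein, fell at 24 h without low-signal arrays by 1.69 with doxorubicin at 0.101 µM, 0.94 with camptothecin at 0.31 µM, 0.99 with mitomycin C at 2.56 µM and 0.66 with methotrexate. FBXW7, which marks MYC for decay, rose by 0.72 with doxorubicin, 0.90 with mitomycin C and 0.49 with methotrexate in the same fit.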
